A study of Mus musculus with 12 samples.

Results

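The genes described here are 9 channels and transporters that move salt and water across the alveolar epithelium and the lung's vessels, taken from a fixed list of symbols among the 18193 genes measured. They are the epithelial sodium channel subunits Scnn1a, Scnn1b and Scnn1g, the aquaporins Aqp1, Aqp3, Aqp4 and Aqp5, the chloride channel Cftr and the sodium pump subunit Atp1b1. All 9 were measured, by 19 probe sets in all, and each gene is represented by its probe set with the highest mean over the 12 arrays. The samples were 6 spontaneous lung tumours from untreated B6C3F1 mice, a hybrid strain used in long-term bioassays, and 6 normal lungs of the same strain, all from animals aged 2 years and each hybridised to 1 Affymetrix mouse array. The labels give neither the sex of the animals nor the histology of the tumours, and nothing states that each sample came from its own mouse, so the tests reflect the variation among these 12 arrays, part of which may be technical.

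In the lung, sodium enters alveolar epithelial cells through the apical epithelial sodium channel (ENaC) and leaves through the basolateral sodium pump, the Na,K-ATPase, and water follows by osmosis. This uptake keeps the airspaces nearly dry and clears them of liquid at birth. Aquaporins are water pores, each known from its own sites: Aqp1 mainly in the endothelium of small vessels, Aqp5 in the apical membrane of type I cells, and Aqp3 and Aqp4 in the basolateral membrane of airway epithelium. Cftr, the gene mutated in cystic fibrosis, conducts chloride through the apical membrane.

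Signals are the authors' MAS5 intensities, and a difference is the mean of the tumours less that of the normal lungs, each taken as log2(signal + 16), with its standard error and n = 6 arrays per group. Adjusted p-values come from limma with Benjamini-Hochberg adjustment over 45037 probe sets, and a gene counts as changed below an adjusted p of 0.05. The number of arrays limits the precision. Per array, the median signal over the table was 127 to 150.2 in tumours and 152 to 165 in normal lungs. Tumours 1, 2, 3 and 5 had Eif2s3y signals, a Y-linked transcript, of 740.5 to 1638, while tumours 4 and 6 and all 6 normal lungs were at 27.4 or less. Sex and tissue are therefore not balanced between the groups, and where leaving out those 4 tumours changes the call of a member, or of a gene named by the rule for the fluid transport lists, or moves a member's called fold by over 1.5 times, that value is given. Normal lungs 2 and 4 stood apart in liver transcripts, with a mean log2 of 10.65 and 10.86 over 5 markers against 5.45 to 7.96 in the other normal lungs. The 5 lower members stayed lower without them.

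Of the 9 genes, 5 were lower in tumours, 0 were higher, and 4 did not pass the test. By limma 1 more gene, Atp1b1, was higher before adjustment (unadjusted p under 0.05). Over all 18193 genes, 17.5% were lower and 12.2% higher, 29.6% in either direction. The same 5 were lower by at least 1 on the log2 scale, as were 10.6% of all genes, and 4.73% were higher by as much. All 6 tumours lay below all 6 normal lungs for 4 of the 9 genes, an arrangement seen in 11.8% of all genes, and no member had all tumours above, as 6.77% of genes did. The median difference of the members was -1.55, beside -0.08 over all genes. The 5 that fell were the 3 ENaC subunits, Aqp1 and Cftr, and all 5 kept their direction and their side of the threshold under each of 25 alternatives.

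**Figure D1:**
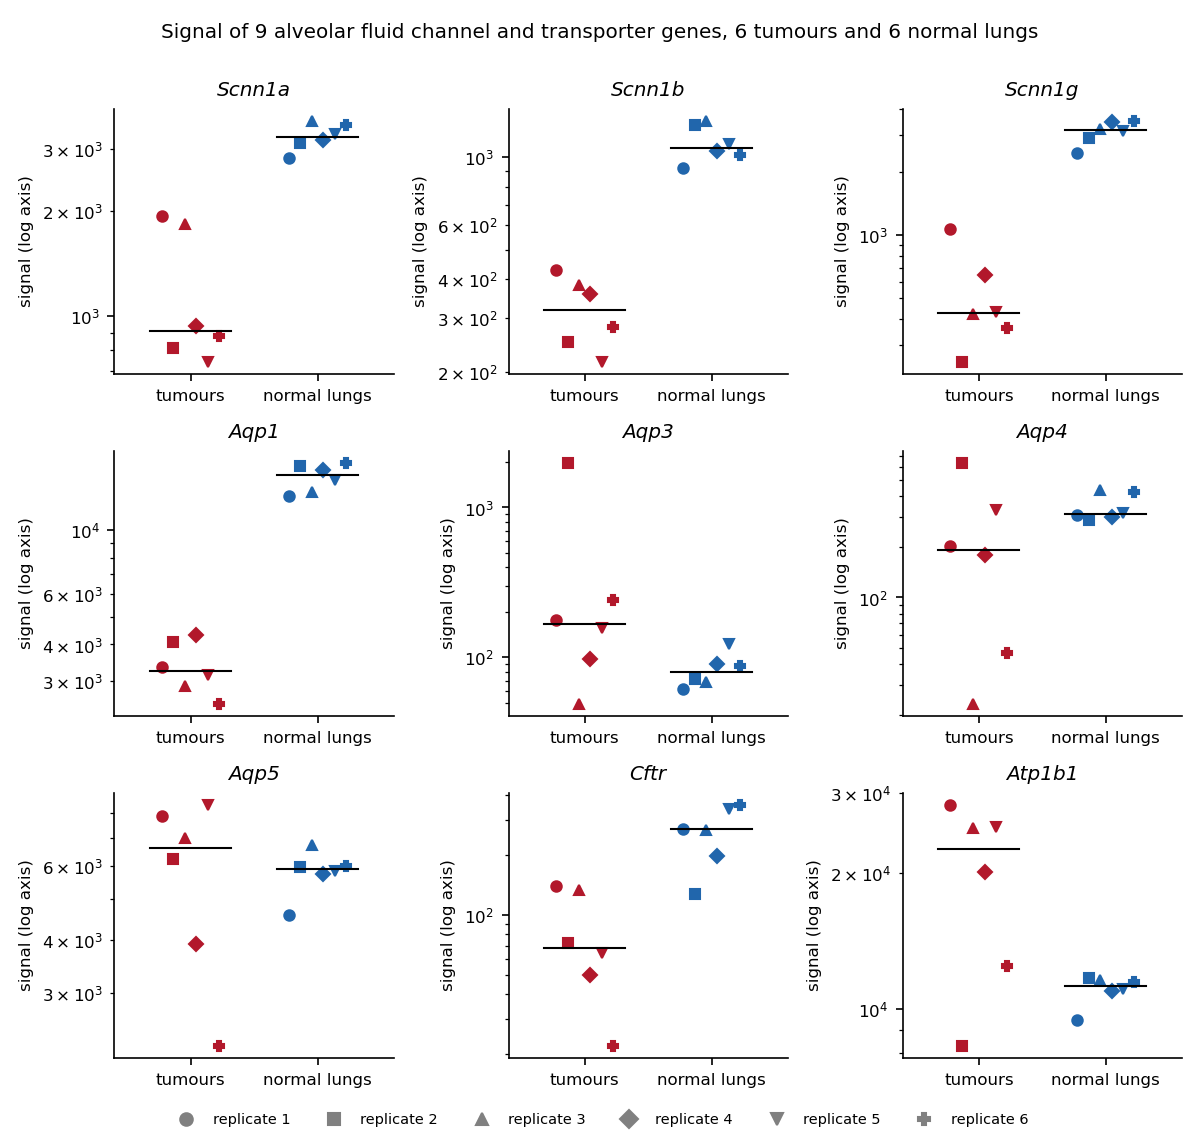
Signal of each of the 9 genes on every array (log axis), tumours in red at the left and normal lungs in blue at the right of each panel, with a symbol per replicate number and a black line at the group median. The groups are separate for Scnn1a, Scnn1b, Scnn1g and Aqp1, and tumour 2 stands above the other tumours for Aqp3 and below them for Atp1b1.

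All 3 ENaC subunits fell. Scnn1a, the alpha subunit, which is needed for the channel to reach the membrane, ranged from 741 to 1936 in tumours with a median of 909, and from 2819 to 3603 in normal lungs with a median of 3249. Its difference was -1.55 ± 0.22 (adjusted p = 1.11e-04), or 2.92-fold lower on the offset scale. The tumours divided visibly, with 1936 and 1835 in tumours 1 and 3 and 741 to 938 in the other 4, and all stayed below the lowest normal lung.

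Scnn1b, the beta subunit, had signals of 215 to 431 in tumours with a median of 319, against 919.7 to 1314 in normal lungs with a median of 1074. The difference was -1.78 ± 0.17 (adjusted p = 2.63e-06), 3.43-fold lower. Its lowest tumours were 5 and 2 and its highest were 1 and 3, the same ends of the order as for Scnn1a.

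Scnn1g, the gamma subunit, showed the largest change of the 9 genes, with signals of 249 to 1068 and a median of 424 in tumours and of 2464 to 3507 with a median of 3163 in normal lungs. The difference was -2.66 ± 0.26 (adjusted p = 3.17e-06), 6.32-fold lower. Tumour 1 was highest at 1068, followed by tumour 4 at 649, and tumour 2 was lowest.

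Whether the subunits changed by unequal amounts was examined within arrays, where the log2 value of a subunit was subtracted from that of another and the groups compared with an exact two-sided permutation test. Among 7 such differences between members, adjusted together, 3 passed. Scnn1g fell further than Scnn1a by 1.11 on the log2 scale (difference -1.11 ± 0.25, n = 6 each, exact p = 0.00216, the smallest this design can give; adjusted p = 0.00758), in 6 of 6 tumours. Relative to Scnn1b its change was -0.88 ± 0.23 (exact p = 0.00649, adjusted p = 0.0152), with 5 of 6 tumours below every normal lung. Scnn1b and Scnn1a changed by amounts that the test did not separate, at -0.23 ± 0.15 (exact p = 0.171, adjusted p = 0.199). Without the 4 tumours with Eif2s3y, the difference of Scnn1g was -0.81 ± 0.36 against Scnn1a and -0.88 ± 0.26 against Scnn1b, where 2 against 6 arrays cannot give an exact p below 0.0714.

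Scnn1g and Scnn1b lie next to each other on chromosome 7 with 1 predicted gene, Gm36848, between them in RefSeq. Their promoters are shown because these subunits fell together, beside that of Aqp1, which also fell, and that of Aqp5, which did not. Each sequence holds the 250 bases before the transcription start from the RefSeq table of build GRCm38.p6, on the strand of the gene. Capitals mark the GC box GGGCGG, the site of Sp-family factors, on either strand. The windows are chr7:121734229-121734478 for Scnn1g, chr7:121864788-121865037 for Scnn1b, chr6:55336049-55336298 for Aqp1 and chr15:99590778-99591027 for Aqp5, all on the plus strand.
Scnn1g: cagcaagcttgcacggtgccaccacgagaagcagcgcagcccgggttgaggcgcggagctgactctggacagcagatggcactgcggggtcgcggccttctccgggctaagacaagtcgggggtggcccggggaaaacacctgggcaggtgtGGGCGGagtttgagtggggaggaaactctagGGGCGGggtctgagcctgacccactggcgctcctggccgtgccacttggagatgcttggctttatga
Scnn1b: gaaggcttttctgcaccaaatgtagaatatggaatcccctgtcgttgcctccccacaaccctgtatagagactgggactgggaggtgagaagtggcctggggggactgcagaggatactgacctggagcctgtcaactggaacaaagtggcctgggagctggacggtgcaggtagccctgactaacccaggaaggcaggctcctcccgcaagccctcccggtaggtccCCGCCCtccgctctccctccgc
Aqp1: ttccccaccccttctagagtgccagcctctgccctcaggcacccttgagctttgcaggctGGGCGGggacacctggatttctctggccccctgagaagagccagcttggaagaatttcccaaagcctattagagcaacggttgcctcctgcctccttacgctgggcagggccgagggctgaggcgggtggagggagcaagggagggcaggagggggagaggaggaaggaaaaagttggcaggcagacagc
Aqp5: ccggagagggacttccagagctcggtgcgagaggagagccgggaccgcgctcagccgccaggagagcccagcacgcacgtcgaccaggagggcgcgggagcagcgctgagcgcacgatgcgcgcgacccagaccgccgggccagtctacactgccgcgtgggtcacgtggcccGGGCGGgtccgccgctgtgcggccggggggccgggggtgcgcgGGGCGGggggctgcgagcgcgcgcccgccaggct
The GC box occurred at 98 and 67 bases before the start in Scnn1g, at 22 in Scnn1b, at 190 in Aqp1 and at 77 and 34 in Aqp5, counted from the first base of each match. Windows were present for 7 of the 9 genes and all 7 held at least 1 GC box, which 32.7% of 32851 windows of the same length contain. These 7 windows were also rich in G and C, at 60.8% to 78.4%, where the median window has 52.4%. The comparison did not allow for that. The motif AGAACA of the glucocorticoid receptor, on either strand, was in none of the 7 and in 16.1% of all windows, and the TATA box TATAAA only in Aqp3, beside 12.4% of all windows. CG pairs numbered 16 in Scnn1g, 7 in Scnn1b, 5 in Aqp1 and 38 in Aqp5, where the median window has 6. Such matches describe the letters of these windows and say nothing of binding.

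Aqp1, the main water channel of lung capillaries, fell most uniformly. Its signal was 2485 to 4307 in tumours with a median of 3233, against 13121 to 17035 in normal lungs with a median of 15459. The difference was -2.19 ± 0.14 (adjusted p = 1.40e-07), 4.56-fold lower, and the highest tumour remained under the lowest normal lung by a wide margin. The SD of its log2 signals among tumours, 0.30, was the smallest of the 9 genes, and 28.3% of all genes had a lower one.

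Markers of the cells in which these genes are known moved as well. All 12 endothelial markers were lower in tumours (median difference -2.97), with a summed signal of 6217 to 16882 in tumours and 69150.5 to 96370.5 in normal lungs, and Pecam1 averaged 983 ± 462 and 7832 ± 676 (SD, n = 6 each). All 10 type I markers were lower (median -2.08), with a summed signal of 30204.5 to 59215 in tumours and 120961 to 142645 in normal lungs. Ager, a receptor abundant on type I cells, averaged 19383 ± 8117 in tumours and 35732 ± 4021 in normal lungs. Of 9 measured type II markers 4 were higher and 0 lower (median 0.50), with a summed signal of 113106 to 254870 and 122476 to 167926. Of 3 measured erythroid markers 2 were lower, with summed signals of 134 to 1385 in tumours and 1886 to 7702 in normal lungs, and of 6 mesothelial markers 4 were lower, with summed signals of 140.2 to 12570.4 and 3197 to 7366. Most airway markers were lower too. All 8 ciliated markers were lower, with a summed signal of 848.3 to 3501 in tumours and 12881.5 to 16657.4 in normal lungs. Of 6 club cell markers 5 were lower and 1 higher, with summed signals of 23115.9 to 89273 and 134559 to 193971. No marker of these lists was listed at 0. The part of these shifts in the results was not tested, and in such bulk samples fewer cells of a type and less RNA per cell cannot be told apart.

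Aqp5, a water pore known from type I cells, did not pass the test. All 10 type I markers were lower in tumours, while of 9 type II markers 4 were higher and 0 lower. The part of either cell type in the Aqp5 result was not tested. The Aqp5 signal spanned 2239 to 8386 in tumours with a median of 6621, and 4585 to 6715 in normal lungs with a median of 5909. Tumours 1, 3 and 5 lay above every normal lung, tumour 2 among them, and tumours 4 and 6 below every one, at 3918 and 2239. The difference was -0.09 ± 0.27 (adjusted p = 0.852), and the direction turned with the scaling, being 0.12 ± 0.27 after median centring. Compared with Aqp1 within arrays, Aqp5 was 2.10 ± 0.30 higher in tumours (exact p = 0.00216, adjusted p = 0.00758), with 6 of 6 tumours above all normal lungs, so these water channels changed unequally. Without the 4 tumours with Eif2s3y that value was 1.24 ± 0.08, with no p below 0.0714 possible.

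The Aqp5 result moved with the sex-linked transcript. The 4 tumours with Eif2s3y had Aqp5 signals of 6246 to 8386, above both others. Without them the difference was -0.96 ± 0.21 (adjusted p = 0.00772), from 2 tumours against 6 normal lungs, and with Eif2s3y as a covariate it was -0.82 ± 0.21 (adjusted p = 0.0170). The 2 settings are not separate checks, for Aqp5 or for other genes. All normal lungs were at 27.4 or less for Eif2s3y, so the covariate rests mainly on the same split among tumours.

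Aqp3, which carries glycerol as well as water and is known from basal cells of the airways, was high in 1 tumour. Signals in tumours were 48.8 to 1985 with a median of 167, and in normal lungs 61.2 to 123 with a median of 79.8. Tumour 2 held the 1985, next came tumour 6 at 242, and 4 of 6 tumours lay above every normal lung. The difference was 1.19 ± 0.60 (adjusted p = 0.174), and 0.56 ± 0.33 without tumour 2 (adjusted p = 0.253).

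Of the 4 Aqp3 probe sets, 3 had tumour 2 as the highest array, at 1985, 1025 and 707. The fourth, at 59.8 or less on every array, showed no such difference (-0.09 ± 0.35). Of 5 basal cell markers 1 was higher in tumours (Krt5, adjusted p = 0.0489). The summed signal of the 5 was 176 to 2864 in tumours and 155 to 192 in normal lungs. Krt14 was 469 in tumour 2 and 2690.4 in tumour 6, against at most 21.2 elsewhere, so the keratin was highest in tumour 6 and Aqp3 in tumour 2. No basal marker was listed at 0, and Krt15 was under the offset in both groups.

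Aqp4, the orthogonal-array water channel best known from astrocytes, varied most between tumours after Aqp3. Tumours spanned 23.2 to 633 with a median of 191, and normal lungs 288 to 434 with a median of 313. Tumours 3 and 6 were at 23.2 and 47.0, tumours 1 and 4 at 203 and 178, tumour 5 within the normal range at 333, and tumour 2 above it at 633. The difference of -1.07 ± 0.53 did not pass (adjusted p = 0.168). Without tumour 2 it passed, at -1.46 ± 0.46 (adjusted p = 0.0311). It was -0.65 ± 0.43 without tumour 3 (adjusted p = 0.329) and -1.69 ± 0.36 without the tumours with Eif2s3y (adjusted p = 0.00789), which passed, while with Eif2s3y as a covariate it was -1.56 ± 0.70 and did not (adjusted p = 0.170).

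The other Aqp4 probe sets had differences of -0.95 ± 0.49 and -0.37 ± 0.28, and neither passed. Within arrays, Aqp4 against Aqp1 differed by 1.11 ± 0.56 between the groups (exact p = 0.0758, adjusted p = 0.133) and Aqp3 against Aqp5 by 1.29 ± 0.77 (exact p = 0.136, adjusted p = 0.191).

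Cftr fell, at low signals. Tumours had 22.0 to 140.2 with a median of 68.7, and normal lungs 128 to 358 with a median of 269.9, so that tumours 1 and 3 reached into the normal range. The difference was -1.61 ± 0.35 (adjusted p = 0.00306), 3.04-fold lower. It was larger without the 4 tumours with Eif2s3y, at -2.40 ± 0.39 (adjusted p = 0.00147), and with Eif2s3y as a covariate, at -2.36 ± 0.36 (adjusted p = 6.15e-04). The second probe set of Cftr was dim, with group means of 13.2 ± 13.1 in tumours and 24.2 ± 12.8 in normal lungs (SD, n = 6 each), and did not pass (-0.53 ± 0.32, adjusted p = 0.267). Against Scnn1a within arrays Cftr differed by -0.06 ± 0.28 between the groups (exact p = 0.851, adjusted p = 0.851). Of 4 ionocyte markers, of the rare airway cells rich in Cftr, 1 was higher and none lower. Foxi1, which defines them, averaged 14.3 ± 17.9 in tumours and 11.3 ± 5.16 in normal lungs, below the offset of 16. The riser was Atp6v0d2, which macrophages also express, and the list's summed signal was 1381 to 8054 in tumours and 541 to 1054 in normal lungs.

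Atp1b1, the beta subunit that brings the sodium pump to the membrane, was higher in most tumours and narrowly missed the threshold. Its signal was 8290.0 to 28306.5 in tumours with a median of 22646, and 9472 to 11719 in normal lungs with a median of 11285. Tumours 1, 3, 4 and 5 had 20159 or more, tumour 6 exceeded the highest normal lung slightly at 12479.7, and tumour 2 lay below every normal lung. The difference was 0.73 ± 0.26 (adjusted p = 0.0514). It was 0.96 ± 0.19 without tumour 2 (adjusted p = 0.0017) and 0.84 ± 0.26 without tumour 6 (adjusted p = 0.0293). By scaling it was 0.94 ± 0.24 after median centring (adjusted p = 0.00898) but 0.45 ± 0.26 after quantile normalization (adjusted p = 0.242).

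All 5 Atp1b1 probe sets had positive differences and none passed. The 4 bright ones ranged from 0.46 to 0.73, and the fifth, with tumour and normal means of 113 and 102, was at 0.19 ± 0.25.

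**Figure D2:**
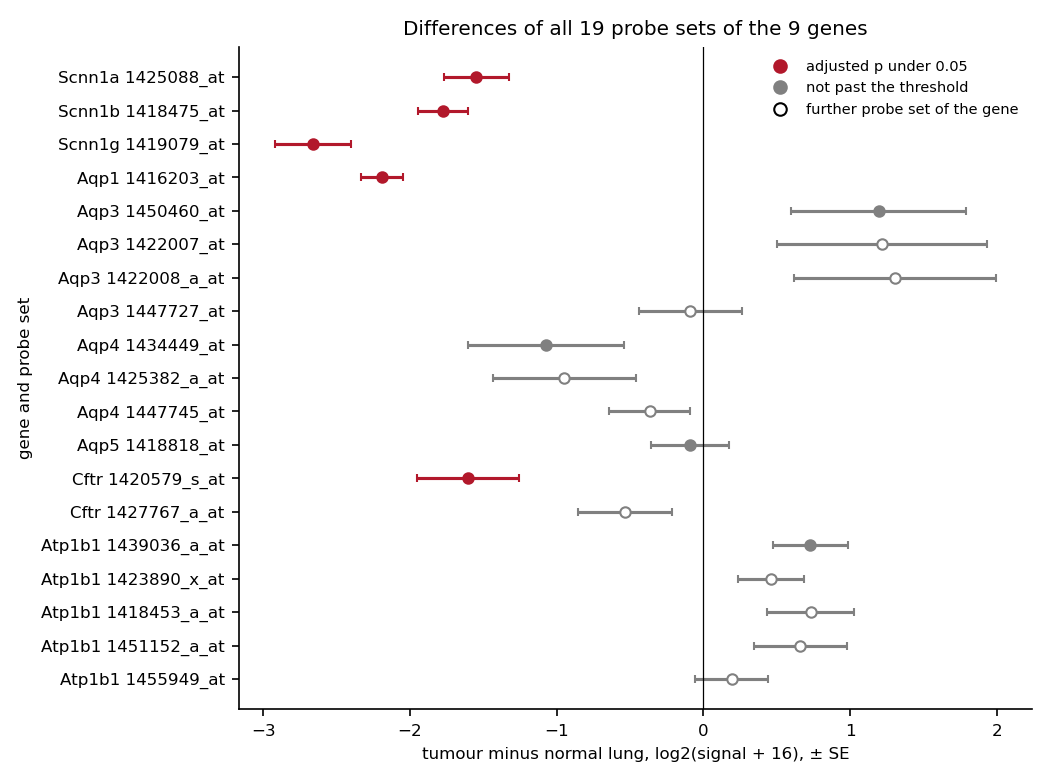
Tumour minus normal lung difference of all 19 probe sets on the log2(signal + 16) scale, with bars of 1 standard error. Red marks an adjusted p under 0.05 and open symbols mark further probe sets of a gene. Scnn1g and Aqp1, with 1 probe set each, lie furthest below 0, at -2.66 and -2.19.

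The tumours were most alike in Aqp1 and Scnn1b and least alike in Aqp3 and Aqp4. Among tumours the SD of log2 signals was 1.70 for Aqp3 and 1.52 for Aqp4, more than 98.7% and 98.1% of genes have, and between 0.30 and 0.77 for the other 7. Among normal lungs the SD was 0.11 to 0.30 for 8 genes and 0.51 for Cftr. The median gene had 0.44 among tumours and 0.28 among normal lungs.

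Relative to the mean of the normal lungs, tumour 2 combined the lowest Scnn1g (-3.55) with the only positive value of Aqp4 (0.86), the highest Aqp3 (4.35) and the only negative value of Atp1b1 (-0.41). Tumour 6 had the lowest Aqp1 (-2.60), Aqp5 (-1.36) and Cftr (-2.79). Tumour 1 had the highest ENaC signals, at -0.74, -1.32 and -1.52 for Scnn1a, Scnn1b and Scnn1g, with the highest Atp1b1 (1.36). With 1 array per tumour, no test between tumours was possible.

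**Figure D3:**
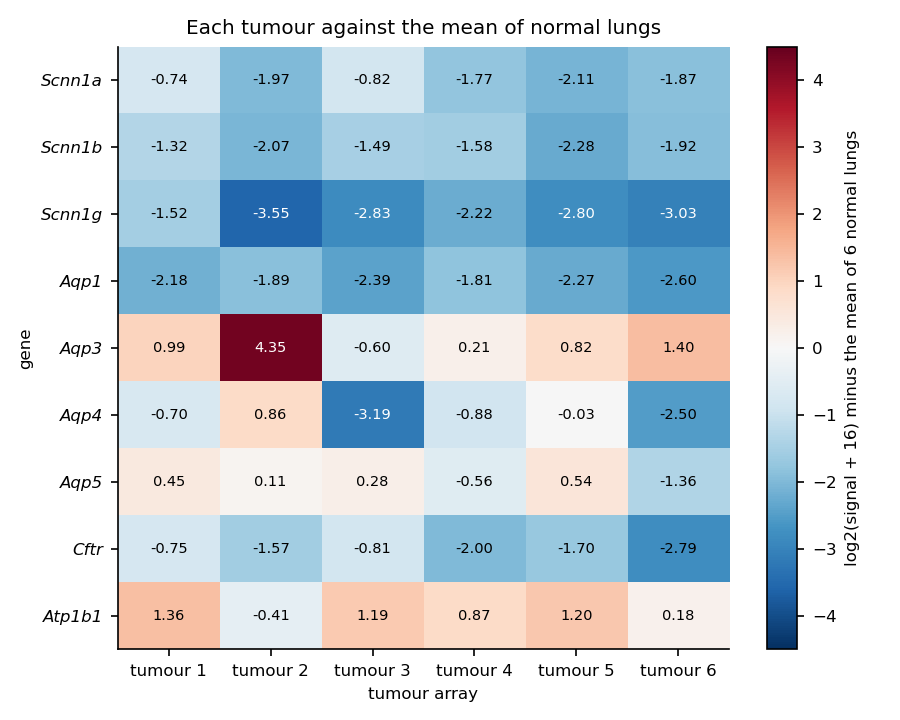
Each cell is a tumour's log2(signal + 16) minus the mean of the 6 normal lungs, for the 9 genes (rows) and 6 tumours (columns), red above and blue below that mean. The ENaC subunits, Aqp1 and Cftr are below it in every tumour, while Aqp3, Aqp4, Aqp5 and Atp1b1 hold both signs.

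With the group means removed, so that only differences between arrays of a group remain, correlations over the 12 arrays described which members varied together. Pearson's r was 0.81 between Scnn1a and Scnn1b, 0.75 between Scnn1g and Atp1b1, 0.67 between Aqp3 and Aqp4 and 0.68 between Aqp5 and Cftr, and -0.81 between Aqp3 and Atp1b1. These values share arrays and scaling, rest mainly on the tumours, and are given as a description. Those of Aqp3 lean on tumour 2. Relative to the mean of the normal lungs, its Aqp3 was at 4.35, against -0.60 to 1.40 in the other tumours.

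The genes most like each member by this measure, among 11371 genes brighter than the median probe set in a group, are given with r. For Scnn1a they were Clic3 (0.96) and Dixdc1 (0.95), for Scnn1b Fbxw8 (0.93) and Ctdspl (0.92), and for Scnn1g Gucy1a1 (0.96), a subunit of the nitric oxide receptor, and Mcoln3 (0.94). Aqp1 was followed by Cyp1b1 (0.92) and Tnfsf10 (0.88), Aqp3 by Epn2 (0.96) and Coq10b (0.95), Aqp4 by Mrvi1 (0.95) and C730049O14Rik (0.93), and Aqp5 by Nupr1 (0.94) and Bik (0.92). Cftr was followed by Plekhd1 (0.91) and Tapbp (0.896). Atp1b1 was closest to Kcnj15 (0.97), an inwardly rectifying potassium channel, and Rprm (0.97).

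Other genes of fluid transport went both ways. In 7 lists from general knowledge, 83 of 93 genes were measured, of which 18 (21.7%) were lower and 17 (20.5%) higher, beside 17.5% and 12.2% of all genes. The median difference was 0.01. After median centring, which moves the median of all probe sets from -0.06 to 0.10, 11 were lower and 22 higher. By list, median centring gave 3 lower and 10 higher among ENaC regulators, 0 and 6 in chloride and bicarbonate transport, 3 and 3 among partners of Cftr, and 0 and 0 among channels with other gating.

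Regulators of ENaC had 7 of 22 genes lower and 9 higher, but 4 lower and 7 higher with Eif2s3y as a covariate, and 4 lower and 8 higher without the tumours with Eif2s3y or without normal lungs 2 and 4. Among those that fell, Hsd11b1, which regenerates active glucocorticoid, averaged 1641 ± 808 in tumours and 11729.8 ± 962 in normal lungs (SD, n = 6 each; -3.01 ± 0.31, adjusted p = 5.36e-06). Tsc22d3, the glucocorticoid-induced leucine zipper, also fell (-1.89 ± 0.18). Stk39, the kinase that activates sodium-chloride cotransporters, had signals of 624 to 2073 in tumours with a median of 1364, and of 65.2 to 229.6 in normal lungs with a median of 155, with no overlap (3.02 ± 0.34, adjusted p = 1.28e-05).

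Serine proteases can cleave and open ENaC, and the list holds several of them with their inhibitors. Among the proteases, Furin (0.39 ± 0.23, adjusted p = 0.244) and Tmprss2 (-0.03 ± 0.26, adjusted p = 0.949) did not pass, while Tmprss4 was higher (1.70 ± 0.31, adjusted p = 9.78e-04). These 3 were named after their values were seen. Spint1 and Spint2, Kunitz-type inhibitors, rose. The difference of Spint1 was 1.58 ± 0.14, and Spint2 averaged 10735.3 ± 1242 in tumours and 5348 ± 683 in normal lungs (SD, n = 6 each). St14, the protease matriptase, rose by 1.39 ± 0.18, without overlap of the groups. Prss8, prostasin, rose by 0.80 ± 0.27 (adjusted p = 0.0442) and Sgk1, the kinase that keeps ENaC at the membrane, fell (-0.69 ± 0.22, adjusted p = 0.0365). Both calls were easily lost, with adjusted p up to 0.0978 for Prss8 and 0.0813 for Sgk1 on leaving out 1 array. The Prss8 call went without any single normal lung and without tumour 1, 3, 4 or 5, and that of Sgk1 went without normal lung 1, 2, 4 or 5 or tumour 2, 3, 4 or 5. Without the tumours with Eif2s3y both calls were also lost, at 0.40 ± 0.24 for Prss8 (adjusted p = 0.318) and -0.46 ± 0.19 for Sgk1 (adjusted p = 0.123). With Eif2s3y as a covariate the adjusted p was 0.388 for Prss8 and 0.314 for Sgk1. Nedd4l, the ligase that removes ENaC from the membrane, did not pass (-0.09 ± 0.15, adjusted p = 0.71), and was at 0.11 after median centring.

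Of 11 sodium pump and FXYD genes 5 were lower and 1 higher. Fxyd1, phospholemman, a pump regulator of muscle, was 110.5 to 349.5 in tumours with a median of 208 and 1880.1 to 2786 in normal lungs with a median of 2287 (-3.38 ± 0.22, adjusted p = 1.40e-07). All 5 smooth muscle markers were lower in tumours, with summed signals of 2896 to 7967 in tumours and 14671 to 26605 in normal lungs, and of 5 cardiac markers 4 were lower, with summed signals of 146 to 1738 in tumours and 11524 to 17675 in normal lungs. Their part in the result was not tested. Fxyd4, a pump regulator of kidney and colon, rose (1.87 ± 0.34, adjusted p = 7.95e-04), with 221 to 1114 in tumours and 99.9 to 181 in normal lungs. Atp1b2, Fxyd2, Fxyd6 and Fxyd7 fell, with differences of -1.82 to -1.13, at mean signals of at most 245.1. The Fxyd7 call (adjusted p = 0.0286) was lost without normal lung 6 (adjusted p = 0.0649) or tumour 5 (adjusted p = 0.0503). It was lost too without the tumours with Eif2s3y (adjusted p = 0.266), with Eif2s3y as a covariate (adjusted p = 0.168), with an offset of 64 (adjusted p = 0.0588) and without normal lungs 2 and 4 (adjusted p = 0.0517). Atp1b3 did not pass (-0.07 ± 0.16).

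Chloride and bicarbonate transport had 4 of 16 genes higher and 1 lower. Slc12a2, the basolateral sodium-potassium-chloride cotransporter that loads cells with chloride, had 9354 to 20303 in tumours with a median of 16338, and 4389.6 to 4903 in normal lungs with a median of 4651. No tumour overlapped a normal lung, and the difference was 1.73 ± 0.17 (adjusted p = 3.46e-06). Slc4a4, a sodium bicarbonate cotransporter, rose by 1.72 ± 0.22, and Clcn3, a chloride-proton exchanger of endosomes, by 0.80 ± 0.15.

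Potassium channels had 2 of 10 genes higher, Kcnk1 (2.31 ± 0.27, adjusted p = 2.07e-05) and Kcne3 (2.05 ± 0.42, adjusted p = 0.0021), a regulatory subunit of Kcnq1 channels. Kcne3 was at 1847 in tumour 6 and at 236 to 437 in the other tumours, against 45.5 to 119.8 in normal lungs. Partners of Cftr and cAMP signalling had 3 of 10 lower and 1 higher. Those that fell were Adcy4 (-1.97 ± 0.15), an adenylyl cyclase, the scaffold Slc9a3r2 (-1.64 ± 0.20) and Prkar2a (-0.55 ± 0.11), a regulatory subunit of protein kinase A.

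Of the 6 channels with other gating 2 were lower, Lrrc8a (-0.56 ± 0.12), of the volume-regulated anion channel, and Trpv4, and neither call held after median centring (Lrrc8a adjusted p = 0.0739). The 8 other aquaporins had 0 higher and 0 lower by limma, with 1, Aqp8, at an unadjusted p under 0.05, and all 8 averaged 211 or less in both groups.

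**Figure D4:**
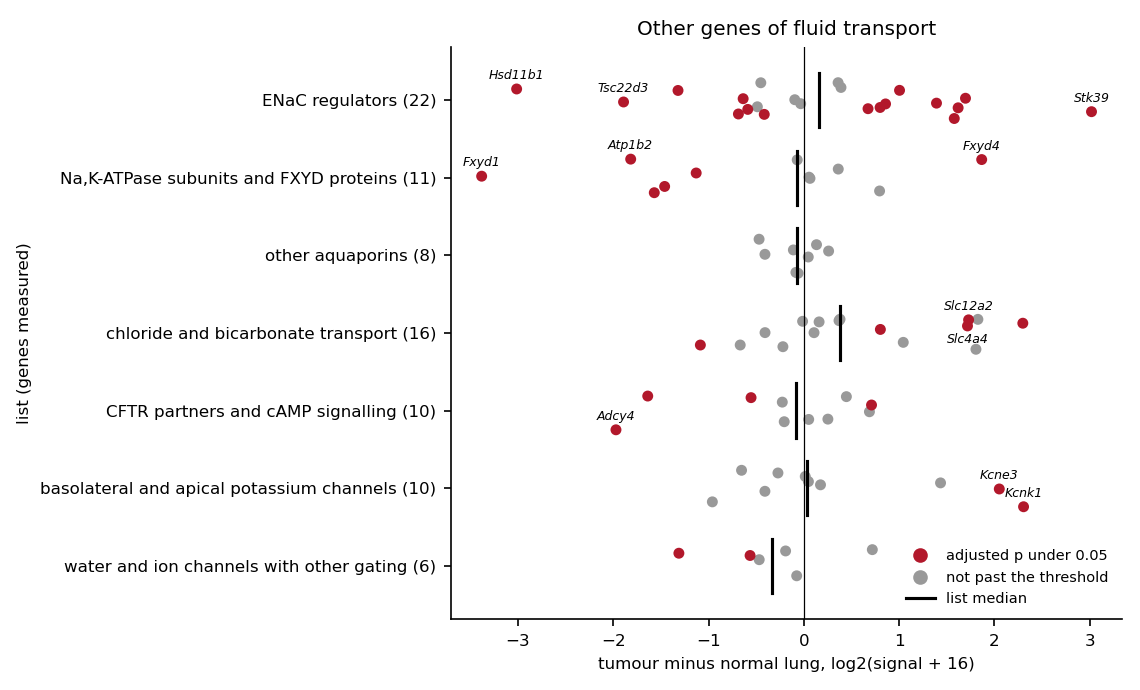
Tumour minus normal lung difference on the log2(signal + 16) scale for 83 other genes of fluid transport in 7 lists, red where the adjusted p is under 0.05, with a black bar at each list's median. Hsd11b1 and Fxyd1 lie furthest to the left, at -3.01 and -3.38, and Stk39 furthest to the right, at 3.02.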

How the data were processed

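Signal intensity per probe set was deposited on a linear scale, made by the authors with MAS5 per the submitters' processing notes; version and settings are not given in the sources used here. The 2% trimmed mean was 500.0 on every array, so the authors' scaling was kept. Of 45101 probe sets, 64 array controls were left out. Of the 45037 tested, 34945 had 1 symbol in GEO's platform annotation, 932 several and 9160 none listed; gene identifiers set against RefSeq (GRCm38.p6) changed no symbol. Detection calls were not used here.

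Here 16 was added to each signal before taking log2, so changes at low signals are understated. The model was run in limma 3.58.1 under R 4.3.3, by lmFit and then eBayes with an intensity trend, two-sided and without covariates. The fit was tested on simulated data. Exact permutation tests used scipy 1.17.1 under Python 3.11.15, and figures matplotlib 3.10.9. A further planned within-array comparison is not reported here.

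Members, lists and alternatives were chosen with earlier results of these data known. In each fluid transport list the text names up to 6 genes with the smallest adjusted p whose groups do not overlap, and a few fixed genes (Nedd4l, Sgk1, Atp1b3, Slc12a2, Prss8); for each member it names the 2 genes most like it. Alternatives were the offset, the scaling, a filter on dim probe sets, the intensity trend, array weights, the replicate block, other probe sets per gene, Eif2s3y, leaving out normal lungs 2 and 4 for their liver transcripts, and each array left out. Leaving out each array for the fluid transport counts was added after seeing the data.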

Additional observations from a re-analysis of the deposited data

Results flagged for a closer look

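Atp1b1 in normal lung 1 was 9472, the lowest of the normal lungs and apart from the other 5, which were at 10975.5 or more. The gap to its neighbour was 0.692 of the range, above Dixon's 95% critical value for 6 arrays. Without that lung the Atp1b1 difference was 0.69 ± 0.28 (adjusted p = 0.0976). Such a test was made for 18 sets of 6 arrays, and chance gives about 1 in 20.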

How the results depend on the processing

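The 5 lower members were called under all 25 alternatives, of which 1 left the members' probe sets as they were. The count of lower members stayed at 5 to 7, and no member was higher except Atp1b1, 1 gene under median centring, under array weights (0.87 ± 0.20, adjusted p = 0.00483), under the filter on dim probe sets (adjusted p = 0.0327), and without tumour 2 or 6. Leaving out 1 array gave 0 to 1 higher members. The Aqp5 difference changed sign under median centring (0.12) and when 1 array was left out, where it ranged from -0.22 to 0.16. Fluid transport genes lower in tumours numbered 11 after median centring. With 1 array left out, 13 to 18 were lower and 15 to 19 higher. Of within-array differences, Aqp4 against Aqp1 passed with an offset of 64 (1.39, adjusted p = 0.00758) and with the mean of the probe sets (1.39, adjusted p = 0.0101), and without tumour 3 (adjusted p = 0.0182), as did Aqp3 against Aqp5 (adjusted p = 0.0182). With 1 array left out, Aqp4 against Aqp1 ranged from 0.787 to 1.497, Aqp3 against Aqp5 from 0.694 to 1.717 and Cftr against Scnn1a from -0.22 to 0.114. Cftr against Scnn1a changed sign with an offset of 64 (0.32) and with the mean of the probe sets (0.48). Without the 4 tumours with Eif2s3y, Scnn1b against Scnn1a was 0.0700, and Scnn1g against Scnn1a (-0.81), Scnn1g against Scnn1b (-0.88) and Aqp5 against Aqp1 (1.24) had adjusted p = 0.125, where the design could not reach 0.05. The cause of these changes was not tested. Same-numbered arrays correlated between -0.02 and 0.02 in their deviations from group means, which gave no sign that the replicate numbers pair the samples. With no known pairs to compare, these correlations cannot exclude pairing. With the replicate block 5 members were lower, 0 higher, and Atp1b1 had adjusted p = 0.0692; 17 fluid transport genes were lower and 17 higher.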

Other observations

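Some further chloride and potassium transport genes were high in 1 to 4 of the 6 tumours, and were chosen here after their values were seen. Clca1, a secreted protein of mucous cells, was 6260.1 in tumour 1 and at most 50.9 in the other tumours, against at most 11.2 in normal lungs (1.81 ± 1.10, adjusted p = 0.273). Slc26a4, the anion exchanger pendrin, was 4371 in tumour 1, 1923 in tumour 3, 1381 in tumour 5 and 504 in tumour 4, while tumours 2 and 6 were at 134 and 137, within the 91.6 to 186 of normal lungs (2.30 ± 0.69, adjusted p = 0.0243).

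Tumours 2 and 6 were high for Ano1 and Kcnn4. These tumours also had the lowest type II markers among tumours, with a mean log2 of 13.20 and 12.93 against 14.15 to 14.43 in the others and 13.12 to 13.34 in normal lungs. Gastric markers, of which 3 of 5 were higher in tumours, had a mean log2 of 10.37 and 9.91 in tumours 2 and 6, 9.76 in tumour 4 and 7.58 to 8.77 in the other tumours, against 6.30 to 7.64 in normal lungs. The part of these markers in the channel values was not tested. Ano1, a calcium-activated chloride channel, was 11735 and 7832 there and between 836 and 2073 in the remaining tumours, against 1051 to 1536 in normal lungs (1.04 ± 0.51, adjusted p = 0.159). Kcnn4, a calcium-activated potassium channel, was 1573.5 and 4568 in these tumours and between 90.5 and 249.1 in the others, against 49.3 to 234.5 in normal lungs (1.44 ± 0.77, adjusted p = 0.203). Kcnj15, the gene closest to Atp1b1, was lower in these tumours, at 191 and 312 in tumours 2 and 6 and between 1145 and 4049.5 in the remaining tumours, against 1020.5 to 1522 in normal lungs.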
